A study of Homo sapiens with 2 samples.

Results

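The genes of DNA replication and S phase were examined in MCF-10A cells, a non-tumorigenic cell line of human mammary epithelium. The list held 56 genes of origin recognition and licensing, the replicative helicase, the polymerases and clamp, nucleotide synthesis, chromatin assembly and the transition between G1 and S. Members were chosen by this function, with earlier results of these data known. MCM10 was left out because it lies on the short arm of chromosome 10. Of the 56 genes, 32 had a named feature on the array and were measured, out of 14812 named genes in all. The 24 others were not analysed here, and with them all 4 origin recognition genes, all 8 polymerase and primase genes, the 5 RFC clamp loader genes, the 3 RPA genes, LIG1, TK1, CHAF1A and CHAF1B.

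Cells that stably expressed a fusion of EGFP with ARHGAP4 (labelled EGFP-ARHGAP4) were compared with cells carrying an EGFP vector, so that both groups carried EGFP. There was 1 array per group, hence no replicate check, no test and no p-value for any difference. The sources used here do not give the promoter that drove the transgene, or say whether the cells were a clone or a pool. Values are the deposited log2 expression values. A difference is EGFP-ARHGAP4 minus EGFP vector, so a negative difference means a lower value in the EGFP-ARHGAP4 array.

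DNA replication starts with origin licensing in G1, when CDC6 and CDT1 help to load a ring of MCM proteins onto DNA. At the start of S phase the CDC7 kinase and cyclin-dependent kinases turn that ring into the active helicase together with CDC45 and the GINS complex, and polymerases held by the PCNA clamp copy both strands. Many of these genes are transcribed late in G1 by E2F factors, so that their RNA is abundant in cycling cells and scarce in resting ones.

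Nearly all measured members were lower in EGFP-ARHGAP4 cells, by small amounts. The difference was below 0 for 31 of the 32 genes (96.9%), against 52.9% of all named genes, and 61.8% of the 7406 named genes whose mean level over both arrays was at or above the median of 4.01. The median difference of the 32 was -0.38, or 1.30-fold lower, with quartiles of -0.62 and -0.29. Over all named genes the median was -0.03, and over those at or above the median level it was -0.10. A difference of at least 0.5 on the log2 scale (1.41-fold) was found downwards for 12 of the 32 members (37.5%), against 6.47% of all named genes and 9.55% of those at or above the median level. No member was higher by that much, against 4.25% of all named genes. At the stricter limit of 1 (2-fold) a single member, E2F8, was lower, against 0.486% of all named genes and 0.729% of those at or above the median level. By mean level 31 of the 32 members reached the median of all named genes, and GINS4 was below it.

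The cells were bulk samples, so a smaller share of cells in S phase and less of each RNA per cell cannot be told apart. The scaling used before deposit is not given, and it sets the centre of the differences. Of the named genes at least 0.5 apart, 60.4% of 1587 were lower as deposited, against 47.9% of 1498 after quantile normalization of both arrays and 47.7% of 1490 after a loess curve of difference against level was subtracted. After quantile normalization 29 members were below 0, against 51.2% of all named genes, and the median of the members was -0.28. None was at or above 0.5, against 5.27% of all named genes. After loess, 28 members were below 0, against 51.6% of all named genes, and their median was -0.27.

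**Figure D1:**
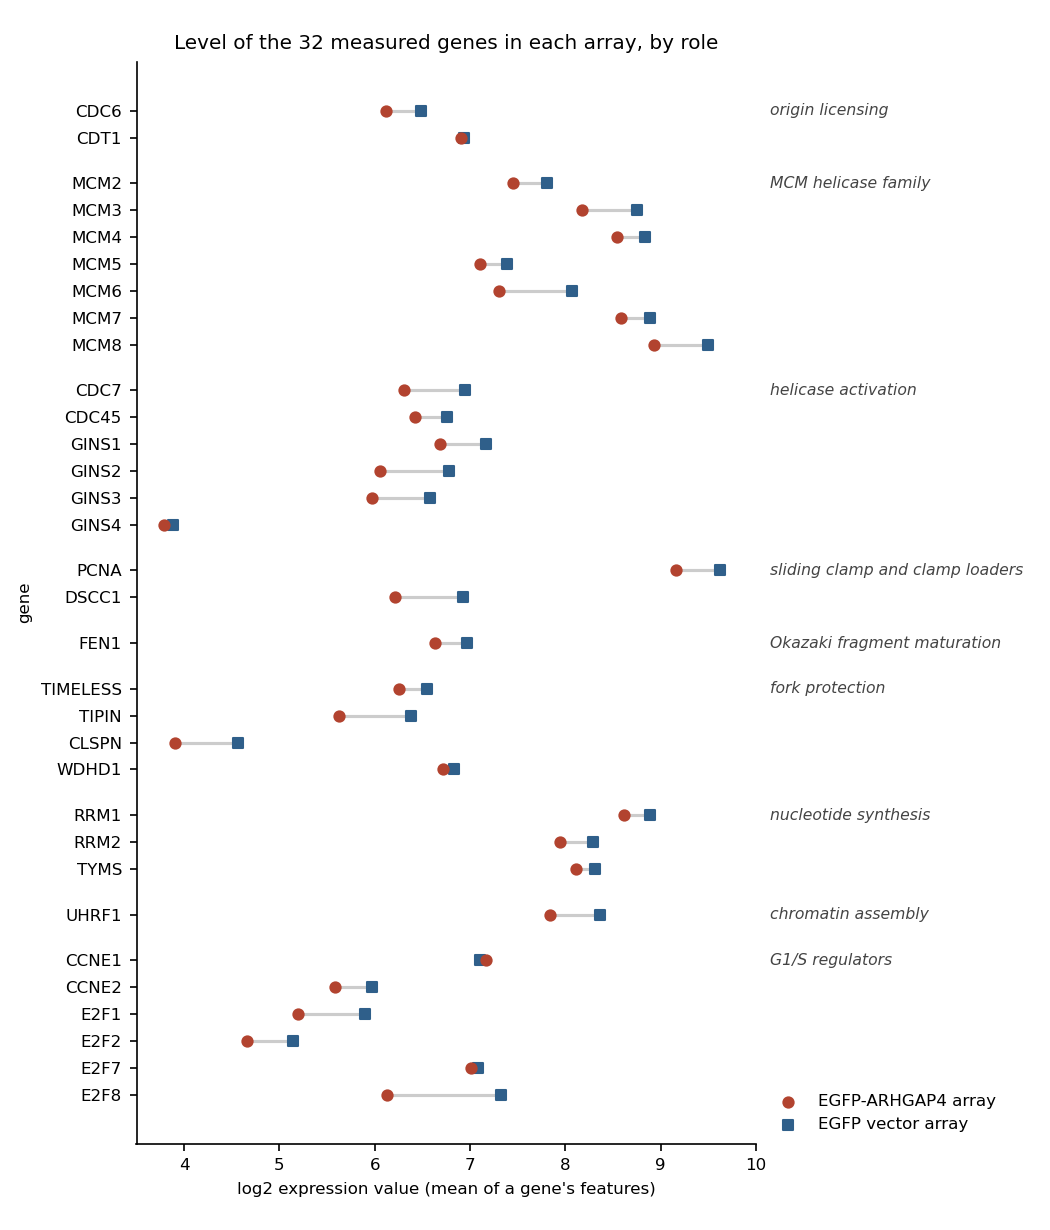
Log2 expression value of each of the 32 measured genes (horizontal axis) in the EGFP-ARHGAP4 array (red circles) and the EGFP vector array (blue squares), grouped by role, 1 array each. The red circle lies left of the blue square for every gene but CCNE1, and the gap is widest for E2F8; levels of different genes rest on different probes and are not compared.

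Promoter windows show a sequence feature that was not read when members were chosen. E2F factors transcribe many genes of this function, however, so frequent matches are not independent of that choice. RefSeq windows of 300 bases on GRCh38.p14, from 250 before to 50 after a gene's start, were at hand for 47 of the 56 members. Each was searched on both strands for an E2F motif, spelled TTTCCCGC, TTTGCCGC, TTTCGCGC or TTTGGCGC. A match was present for 25 of the 47 members (53.2%), against 1090 of 27305 genes (3.99%) and 3.31% of the 35116 windows. The match began within 50 bases of a start for 18 of the 25. Of the 26 measured members with a window, 18 held a match (69.2%) and 8 did not, against 6.75% with a match among the 5894 other named genes at or above the median level with a window. Shown are the windows of the 5 members with the lowest difference and the 1 with the highest difference among measured members that hold a match, written 5′ to 3′ along the gene's strand with E2F matches in capitals. Distances below are counted from the first base of a match.

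MCM6 (chr2:135876394-135876693, minus strand): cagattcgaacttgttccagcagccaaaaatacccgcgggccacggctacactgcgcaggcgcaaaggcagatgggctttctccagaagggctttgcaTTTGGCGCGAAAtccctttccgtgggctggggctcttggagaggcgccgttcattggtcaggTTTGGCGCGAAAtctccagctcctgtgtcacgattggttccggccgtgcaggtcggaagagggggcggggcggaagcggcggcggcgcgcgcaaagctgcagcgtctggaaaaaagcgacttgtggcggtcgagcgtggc
TIPIN (chr15:66356636-66356935, minus strand): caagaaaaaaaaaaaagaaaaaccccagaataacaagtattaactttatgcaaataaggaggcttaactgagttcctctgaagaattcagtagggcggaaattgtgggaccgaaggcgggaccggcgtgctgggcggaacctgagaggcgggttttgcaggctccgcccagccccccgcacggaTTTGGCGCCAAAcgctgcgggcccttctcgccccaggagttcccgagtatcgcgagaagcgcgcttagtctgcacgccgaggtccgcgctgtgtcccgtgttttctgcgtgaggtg
GINS2 (chr16:85688905-85689204, minus strand): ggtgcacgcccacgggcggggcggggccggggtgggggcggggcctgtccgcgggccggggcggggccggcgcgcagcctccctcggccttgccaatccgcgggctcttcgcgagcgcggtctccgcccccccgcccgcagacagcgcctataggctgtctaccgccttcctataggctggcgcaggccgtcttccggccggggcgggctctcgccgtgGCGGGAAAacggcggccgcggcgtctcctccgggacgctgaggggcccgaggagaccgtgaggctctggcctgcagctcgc
E2F1 (chr20:33686336-33686635, minus strand): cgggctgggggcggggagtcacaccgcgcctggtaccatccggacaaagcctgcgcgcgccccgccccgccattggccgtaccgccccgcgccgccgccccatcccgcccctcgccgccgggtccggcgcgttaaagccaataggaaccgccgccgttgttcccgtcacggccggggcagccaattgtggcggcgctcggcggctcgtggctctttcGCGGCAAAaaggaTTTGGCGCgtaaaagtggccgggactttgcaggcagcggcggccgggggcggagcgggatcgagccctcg
CLSPN (chr1:35769929-35770228, minus strand): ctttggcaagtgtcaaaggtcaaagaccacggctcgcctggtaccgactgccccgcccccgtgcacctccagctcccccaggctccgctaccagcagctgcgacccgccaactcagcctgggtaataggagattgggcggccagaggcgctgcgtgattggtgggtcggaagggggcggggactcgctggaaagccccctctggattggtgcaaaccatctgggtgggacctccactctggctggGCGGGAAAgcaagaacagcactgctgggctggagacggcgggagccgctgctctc
CDT1 (chr16:88803539-88803838, plus strand): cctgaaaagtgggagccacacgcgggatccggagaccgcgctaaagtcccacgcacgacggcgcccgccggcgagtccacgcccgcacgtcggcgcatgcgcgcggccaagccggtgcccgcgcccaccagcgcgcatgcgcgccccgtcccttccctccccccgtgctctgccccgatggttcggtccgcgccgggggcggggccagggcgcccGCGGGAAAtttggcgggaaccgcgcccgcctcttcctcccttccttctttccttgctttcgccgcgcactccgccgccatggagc

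MCM6 holds 4 matches in 2 overlapping pairs that begin 152, 148, 90 and 86 bases before the start, and it was the lowest of the helicase genes at -0.77. In TIPIN the 2 matches overlap in a palindrome 66 bases before the start. The E2F1 gene, itself coding for an E2F factor, holds matches 33 and 20 bases before its start. GINS2 and CLSPN hold a single match each, 31 and 5 bases before the start. CDT1 also holds 1, at 35 bases before the start, yet its difference was only -0.03, so a match did not go with a large difference in every member. The median difference was -0.55 over the 18 measured members with a match and -0.28 over the 8 without. The windows of DSCC1, E2F8, CCNE2, GINS4, MCM4 and MCM5 were not at hand.

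Outside the list the same motif also went with a lower median, but by a smaller gap than among members. Among those 5894 genes, the 398 with an E2F match had a median of -0.18 and the 5496 without had -0.10. The CCAAT motif was found in 30 of 47 members (63.8%), against 39.7% of all genes with a window and 43% of the 5894. GGGCGG, the GC box, stood in 38 of 47 members (80.9%), against 48.3% of all genes but 78.9% of the 5894, so it was about as frequent in members as in other genes at or above the median level. The CHR element of mitotic genes, searched as TTTGAA or TTCGAA, was found in 2 of 47 members (4.26%), MCM6 and RRM1, against 19.5% of all genes and 15.1% of the 5894. The 47 include members that were not measured, unlike the 5894. Over the 26 measured members with a window, the shares were 65.4% for CCAAT, 80.8% for the GC box and 7.69% for CHR. A lower median with a match was not particular to the E2F motif. Among the 5894 genes, the medians with and without CHR were -0.18 and -0.09. For CCAAT they were -0.11 and -0.10, and for the GC box -0.10 and -0.11. Among measured members they were -0.48 and -0.34 for CCAAT and -0.46 and -0.37 for the GC box. For CHR they were -0.52 and -0.41, with only 2 members holding a match. These matches describe letters in a window and not binding.

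**Figure D2:**
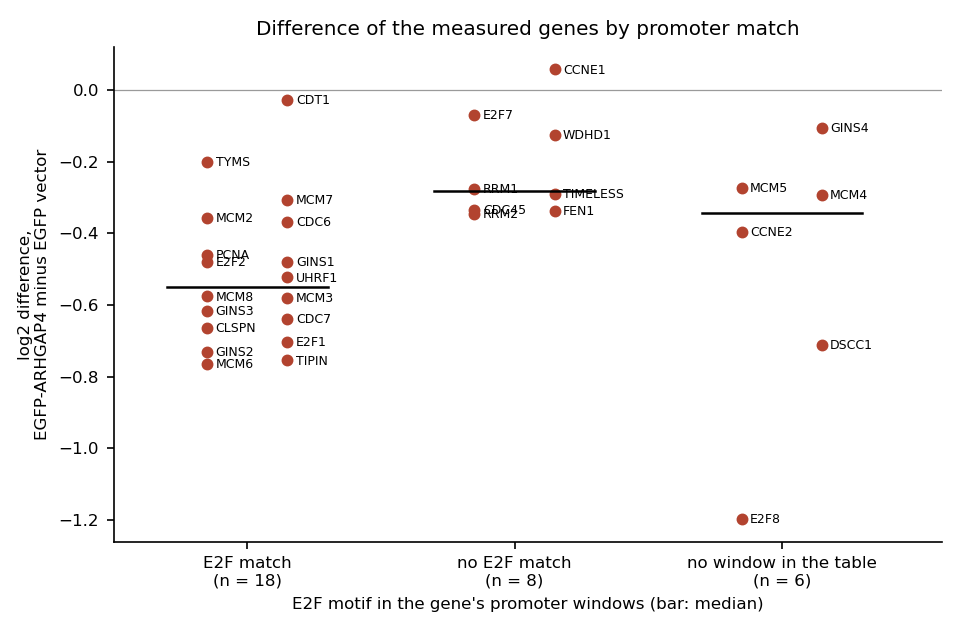
Log2 difference, EGFP-ARHGAP4 minus EGFP vector (vertical axis), of each measured gene with an E2F match in a promoter window (18 genes), with windows but no match (8 genes) and with no window (6 genes); bars mark medians. Genes with a match reach from -0.77 to -0.03 and those without from -0.35 to 0.06.

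Both licensing factors were measured, and they differed by unequal amounts. CDC6, the ATPase that brings MCM rings to origins, had a log2 value of 6.12 in EGFP-ARHGAP4 cells and 6.48 in EGFP vector cells, 1.29-fold lower. CDT1, its partner in loading, stood at 6.91 in EGFP-ARHGAP4 cells and 6.93 in EGFP vector cells. The CDT1 difference of -0.03 turned to 0.06 after quantile normalization and 0.10 after loess, so its direction was not settled.

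All 7 measured MCM genes were lower, with a median of -0.36. The proteins MCM2 to MCM7 form the hexamer at the core of the replicative helicase. MCM6 stood apart within the ring, at 7.30 in EGFP-ARHGAP4 cells against 8.07 in EGFP vector cells, 1.70-fold lower. MCM3 had 8.17 in EGFP-ARHGAP4 cells and 8.75 in EGFP vector cells, a difference of -0.58. The other ring genes lay close together, between -0.36 and -0.27. MCM2 was at 7.45 in EGFP-ARHGAP4 cells and 7.80 in EGFP vector cells. MCM7 stood at 8.58 in EGFP-ARHGAP4 cells and 8.88 in EGFP vector cells. MCM4 had values of 8.54 in EGFP-ARHGAP4 cells and 8.83 in EGFP vector cells. These subunits of the same ring thus had folds between 1.21 and 1.28, as had MCM5, at 7.11 in EGFP-ARHGAP4 cells and 7.38 in EGFP vector cells. MCM8, a paralog outside the ring that acts in recombination repair, was at 8.93 in EGFP-ARHGAP4 cells and 9.50 in EGFP vector cells, a difference of -0.58 and as low as MCM3.

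The factors that switch the helicase on had a median of -0.55 over 6 genes, and all 6 were below 0. CDC7, the kinase that phosphorylates the MCM ring, had 6.31 in EGFP-ARHGAP4 cells and 6.94 in EGFP vector cells, 1.56-fold lower. CDC45, which joins the ring in the active helicase, was at 6.42 in EGFP-ARHGAP4 cells and 6.75 in EGFP vector cells. GINS1 to GINS4 code for the 4 subunits of the GINS complex, the third part of that helicase. GINS2 was the lowest, at 6.05 in EGFP-ARHGAP4 cells and 6.78 in EGFP vector cells, 1.66-fold lower. GINS3 stood at 5.97 in EGFP-ARHGAP4 cells and 6.58 in EGFP vector cells. GINS1 was lower by less, at 6.69 in EGFP-ARHGAP4 cells and 7.17 in EGFP vector cells. GINS4 rested on 2 features that disagreed in direction. The brighter had 5.54 in EGFP-ARHGAP4 cells and 5.40 in EGFP vector cells, a difference of 0.14. The dimmer had 2.03 in EGFP-ARHGAP4 cells and 2.38 in EGFP vector cells, a difference of -0.35. Their mean gave -0.10, but the dimmer is not shown to be above background, so the direction of GINS4 was not settled.

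PCNA, the ring-shaped clamp that holds polymerases on DNA, was at 9.16 in EGFP-ARHGAP4 cells and 9.62 in EGFP vector cells, 1.38-fold lower. DSCC1, a subunit of the alternative clamp loader that serves sister chromatid cohesion, had 6.22 in EGFP-ARHGAP4 cells and 6.93 in EGFP vector cells, 1.64-fold lower. FEN1, the nuclease that trims the flaps of Okazaki fragments, stood at 6.63 in EGFP-ARHGAP4 cells and 6.97 in EGFP vector cells. The clamp was thus lower by less than the alternative loader subunit, on features that carry no error estimate.

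The 4 genes of fork protection were all lower, by unequal amounts. TIMELESS and TIPIN code for partner proteins that steady the fork. TIPIN was at 5.62 in EGFP-ARHGAP4 cells and 6.38 in EGFP vector cells, a difference of -0.75. TIMELESS was at 6.25 in EGFP-ARHGAP4 cells and 6.54 in EGFP vector cells, a difference of -0.29. CLSPN, claspin, the adaptor that passes the checkpoint signal at stalled forks, averaged 3.90 in EGFP-ARHGAP4 cells and 4.57 in EGFP vector cells over 2 features. The brighter CLSPN feature had 5.82 in EGFP-ARHGAP4 cells and 6.79 in EGFP vector cells, a difference of -0.97. The dimmer had 1.98 in EGFP-ARHGAP4 cells and 2.34 in EGFP vector cells, a difference of -0.36. The dimmer lies well below the median level of named genes and is not shown to be above background, so the direction of CLSPN rests on the brighter feature. WDHD1, which tethers polymerase alpha to the helicase, had 6.71 in EGFP-ARHGAP4 cells and 6.84 in EGFP vector cells, and its difference of -0.12 became 0.001 after loess.

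Nucleotide synthesis genes differed least among the roles with 3 or more measured genes, with a median of -0.27. RRM1, the large subunit of ribonucleotide reductase, was at 8.61 in EGFP-ARHGAP4 cells and 8.88 in EGFP vector cells. RRM2, the small subunit made in S phase, stood at 7.94 in EGFP-ARHGAP4 cells and 8.29 in EGFP vector cells. TYMS, thymidylate synthase, had 8.11 in EGFP-ARHGAP4 cells and 8.32 in EGFP vector cells, 1.15-fold lower. UHRF1, which recruits maintenance methylation to newly copied DNA, was measured alone in the chromatin group, at 7.84 in EGFP-ARHGAP4 cells and 8.36 in EGFP vector cells, 1.44-fold lower.

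The regulators of the G1/S transition spread the widest, from -1.20 to 0.06 over 6 genes. E2F8, an atypical E2F that represses E2F targets late in S phase, was at 6.13 in EGFP-ARHGAP4 cells and 7.33 in EGFP vector cells, 2.30-fold lower. It was the 30th lowest of the 14812 named genes. E2F7, the other atypical E2F, had 7.01 in EGFP-ARHGAP4 cells and 7.08 in EGFP vector cells, and its difference of -0.07 turned to 0.05 after quantile normalization. The activator genes E2F1 and E2F2 lay between them. E2F1 stood at 5.19 in EGFP-ARHGAP4 cells and 5.90 in EGFP vector cells, 1.63-fold lower. E2F2 had 4.66 in EGFP-ARHGAP4 cells and 5.14 in EGFP vector cells, 1.40-fold lower. The genes of the E-type cyclins, which drive CDK2 at S phase entry, also parted. CCNE1 was the only member above 0, at 7.16 in EGFP-ARHGAP4 cells and 7.10 in EGFP vector cells. CCNE2 was lower, at 5.58 in EGFP-ARHGAP4 cells and 5.97 in EGFP vector cells.

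**Figure D3:**
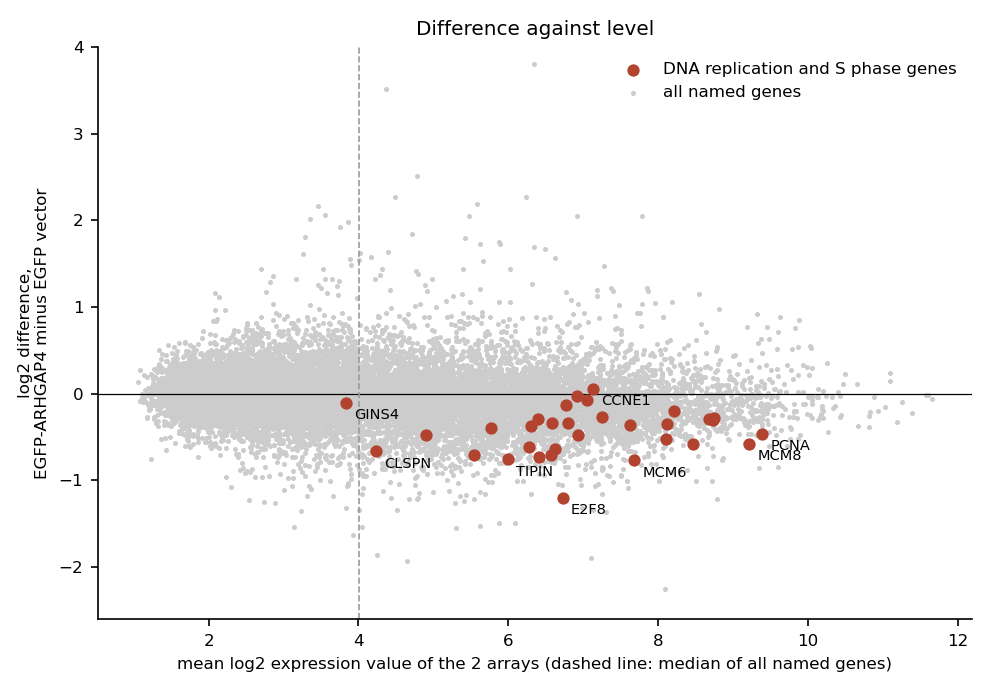
Log2 difference, EGFP-ARHGAP4 minus EGFP vector (vertical axis), against the mean log2 value of both arrays for all 14812 named genes (grey) and the 32 measured members (red), some of them labelled. Members lie in the lower part of the cloud over mean levels from 3.84 to 9.39.

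The differences were spread over the range of levels and over the genome. The 16 members with the lower mean levels had a median difference of -0.55 and the 16 with the higher ones -0.33, and across the 32 genes Pearson's r between difference and mean level was 0.11 and Spearman's rank correlation 0.25, given as a description over genes on the same pair of arrays. The measured members lie on 16 chromosomes, none on chromosome 10. Against the median of up to 24 neighbouring named genes on its chromosome, 12 on either side, each member was set as a measure of regional shifts. By that measure 30 of the 32 were below their neighbours, with a median of -0.38. Against neighbours at or above the median level, a setting chosen after the data were seen, 27 were below, with a median of -0.32, and 6 rather than 12 were lower by at least 0.5. The shares of all named genes below their own neighbours were not counted, so these counts have no background. Of named genes at or above the median level, which 31 of the 32 members reached, 61.8% were below 0.

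Over all named neighbours, regional values stood out beside TYMS. Its 16 neighbours had a median of -0.41, below its own difference of -0.20. Over neighbours at or above the median level, TYMS stood out less. The median was -0.34 beside TYMS, -0.32 beside DSCC1, -0.27 beside E2F7 and -0.26 beside TIPIN. With those neighbours subtracted, DSCC1 went from -0.71 to -0.40 and TIPIN from -0.75 to -0.49. On chromosome 20, PCNA, MCM8, GINS1 and E2F1 had differences from -0.70 to -0.46, where the 219 named genes at or above the median level had a median of -0.08. Closer by, neighbours at or above the median level had medians of -0.20 beside MCM8 and -0.17 beside PCNA. The medians were -0.05 beside GINS1 and -0.02 beside E2F1. With those neighbours subtracted, MCM8 was at -0.38, PCNA at -0.29, GINS1 at -0.43 and E2F1 at -0.68. On chromosome 16 the members were less alike, with GINS2 and GINS3 at -0.73 and -0.62 and CDT1 at -0.03. Whether regional shifts had a part in these values was not tested.

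**Figure D4:**
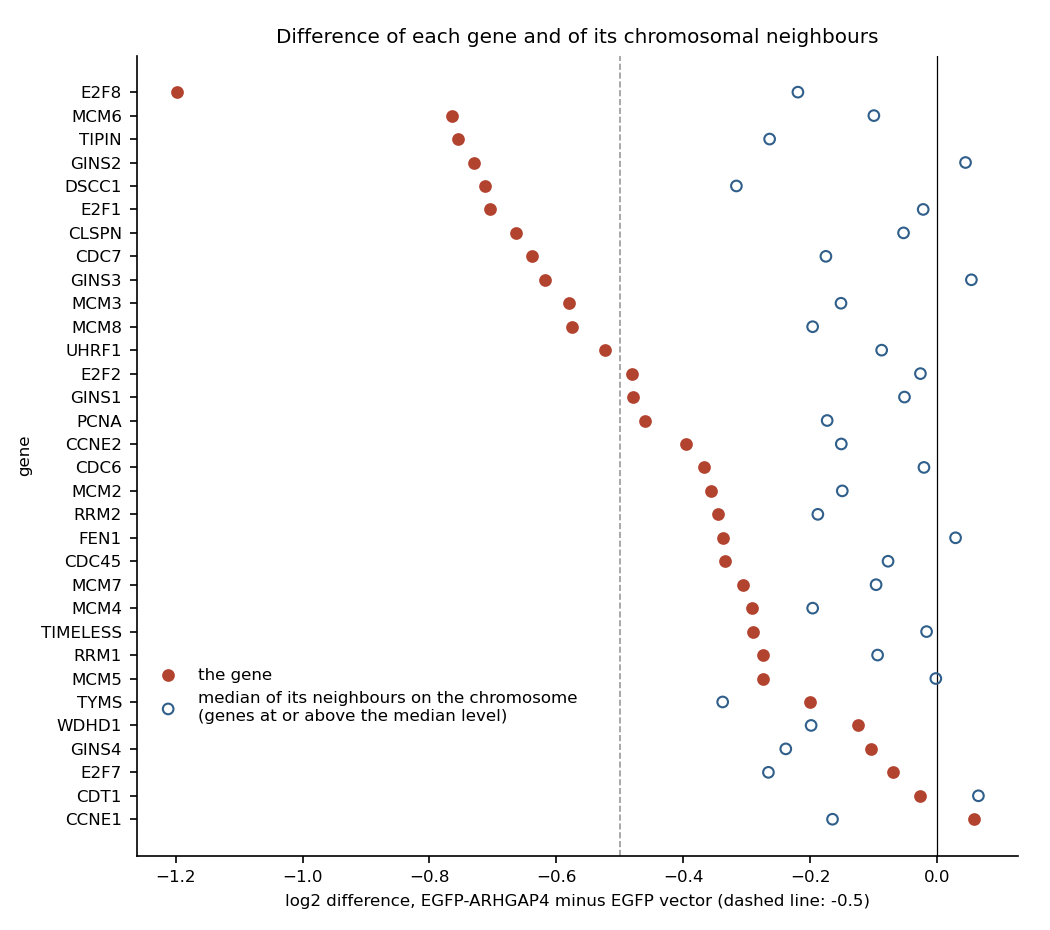
Log2 difference, EGFP-ARHGAP4 minus EGFP vector (horizontal axis), of each measured gene (red) and the median over its neighbours at or above the median level (open blue circles), sorted by difference; the dashed line marks -0.5. Neighbour medians run from -0.34 to 0.07, and the red point lies to the left in 27 of 32 genes. The same share over all named genes was not counted.

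Other genes of replication, from lists drawn up beside the members, were mostly lower too. Of 110 such genes 68 were measured, 60 were below 0 and 7 above, 19 were lower by at least 0.5 and 2 higher by that much, with a median of -0.35. Among named genes at or above the median level, which 64 of the 68 reached, 61.8% were below 0 and 9.55% lower by at least 0.5, and the counts of the single lists below stand beside the same shares. All 13 further fork and origin factors were below 0, 6 of them at or under -0.5, and their median was -0.47. DBF4 and DBF4B, the genes of the CDC7 activating subunits, were lower alongside CDC7. DBF4 was at 6.51 in EGFP-ARHGAP4 cells and 7.11 in EGFP vector cells, and DBF4B at 4.53 in EGFP-ARHGAP4 cells and 5.30 in EGFP vector cells. TICRR, treslin, which helps CDC45 to load, was 1.59-fold lower and DONSON, another factor of helicase assembly, 1.54-fold lower. All 10 measured genes of replication-coupled chromatin assembly were below 0, with a median of -0.49. The histone chaperone genes ASF1B, ASF1A and NASP were at -0.61, -0.53 and -0.51, and PCLAF, the PCNA-associated factor, at -0.55.

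Nucleotide supply held differences in both directions. RRM2B, the ribonucleotide reductase subunit that p53 induces outside S phase, was higher, at 8.23 in EGFP-ARHGAP4 cells and 7.29 in EGFP vector cells, 1.91-fold. RRM2 and RRM2B, alternative partners of RRM1, thus differed in opposite directions. SAMHD1, which breaks down deoxynucleotides, had 5.95 in EGFP-ARHGAP4 cells and 6.88 in EGFP vector cells, 1.91-fold lower. DCK, the salvage kinase for deoxycytidine, was at -0.77, and IMPDH1, of guanine nucleotide synthesis, at -0.52. Over these 12 supply genes 9 were below 0, 4 were lower by at least 0.5 and 1 was higher by that much, with a median of -0.24.

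Further G1/S regulators, 17 of 21 measured, had a median of -0.32, with 14 below 0 and 3 lower and 1 higher by at least 0.5. CCND2, cyclin D2, was the higher, at 7.03 in EGFP-ARHGAP4 cells and 6.26 in EGFP vector cells. MYBL2, the transcription factor B-MYB, stood at 8.47 in EGFP-ARHGAP4 cells and 9.24 in EGFP vector cells. CCNA2, cyclin A2, was at -0.72 and FBXO5, an inhibitor of the anaphase-promoting complex, at -0.70. In the replication checkpoint 8 of 9 genes were below 0 and 1 was above, with a median of -0.23, and only 1 was lower by at least 0.5. Its kinase gene CHEK1 was the lowest, at 7.30 in EGFP-ARHGAP4 cells and 7.90 in EGFP vector cells, followed by RAD17 at -0.47, ATR at -0.42 and WEE1 at -0.37. Of 8 listed genes of cyclin-dependent kinase inhibitors and related proteins 2 were measured. CDKN3, a phosphatase that acts on these kinases, was at -0.46, and CDKN2A had the same value of 2.87 in both arrays. That CDKN2A level lies below the median of named genes and is not shown to be above background. The 5 measured polymerase genes outside S phase replication had a median of -0.28, with the primase-polymerase PRIMPOL at -0.67, MAD2L2 at -0.41, POLN at -0.28 and POLK at -0.11.

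Mitotic genes were lower by more than the members in these arrays, and recombination genes by less, though neither contrast was tested. The 51 mitotic genes measured had a median of -0.61, 48 of them negative and 35 at or under -0.5. The separase gene ESPL1 was at -0.93 and the condensin gene SMC4 at -0.91. For recombination and Fanconi genes the median was -0.28 over 21 genes, 15 of them negative and 6 at or under -0.5. The share below 0 was thus not far from the 61.8% of named genes at or above the median level. Only 9.55% of those named genes were at or under -0.5. RAD54L, a motor protein of strand exchange, was at -0.94 and the helicase gene BRIP1 at -0.78. After loess the medians were -0.27 for the replication members, -0.50 for the mitotic genes and -0.16 for the recombination genes, in the same order.

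**Figure D5:**
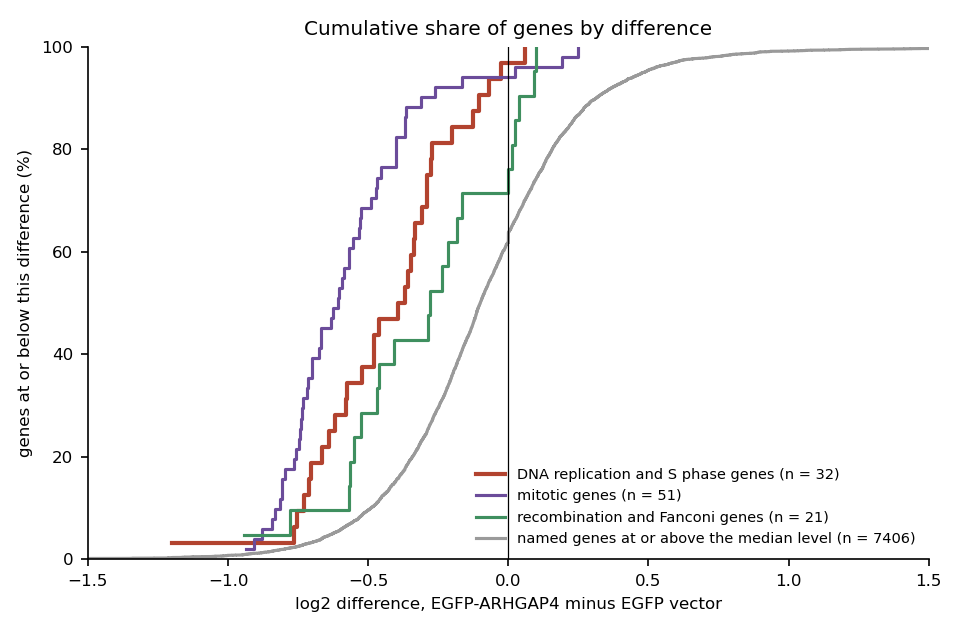
Cumulative percentage of genes (vertical axis) at or below each log2 difference, EGFP-ARHGAP4 minus EGFP vector (horizontal axis), for the 32 replication members (red), 51 mitotic genes (purple), 21 recombination and Fanconi genes (green) and the 7406 named genes at or above the median level (grey). The medians are -0.38, -0.61, -0.28 and -0.10.

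Facts of the whole series bear on these values. ARHGAP4 was at 6.68 in the EGFP-ARHGAP4 array and 4.49 in the EGFP vector array, the direction of the labels. MCM10, the replication factor left out for its place on chromosome 10, was at 6.63 in EGFP-ARHGAP4 cells and 7.996 in EGFP vector cells, 2.58-fold lower. Of 15 epithelial markers 9 were measured, of which 7 were above 0, 4 of them by at least 0.5, and 2 below, with a median of 0.36. Over all named genes 4.25% were higher by at least 0.5. So were 334 of the 7406 named genes at or above the median level, which all 9 markers reached. Among the 9 markers KRT5 was at 8.34 in EGFP-ARHGAP4 cells and 8.33 in EGFP vector cells, and EPCAM at 7.79 in EGFP-ARHGAP4 cells and 6.58 in EGFP vector cells. The tight junction gene CLDN7 had a difference of 1.22, the highest of the 9. The basal keratin gene KRT14, the lowest, was at 6.96 in EGFP-ARHGAP4 cells and 9.21 in EGFP vector cells. Of the markers of other cell types, 2 of 8 fibroblast genes were measured, at 1.73 to 2.05 in EGFP-ARHGAP4 cells and 1.75 to 1.86 in EGFP vector cells. The 4 of 7 endothelial genes ranged from 1.41 to 5.63 in EGFP-ARHGAP4 cells and from 1.72 to 4.31 in EGFP vector cells, and KDR alone among them differed by 0.5 or more. For immune cells 3 of 8 genes were measured, at 3.91 to 7.80 in EGFP-ARHGAP4 cells and 3.41 to 7.32 in EGFP vector cells, and their part in the results was not tested.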

How the data were processed

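The 2 samples of MCF-10A RNA, 1 per group, were assigned to groups by the genotype in their labels. Per the labels' protocols, total RNA was amplified with a whole-transcript kit, and the sense cDNA was fragmented, labelled with biotin and hybridised to arrays. The deposited table holds a log2 expression value for each of 44629 features and both arrays; how it was summarised and normalized is not stated in those sources. That the log has base 2 was read from the values, since the highest, 12.8, exceeds the natural log (11.1) and the log10 (4.82) of a 16-bit scanner's top reading. The number of arrays limits the precision.

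Platform annotation named 15835 features, all found by Entrez identifier in RefSeq's gene table for GRCh38.p14, and none of the 28794 others was used. Features of a gene were averaged, giving 14812 genes, 14161 of them with 1 feature. Among the 325 genes at or above the median level with several features, the pooled SD of differences within a gene was 0.19, a measure of agreement between features and not between cultures. The arrays correlated with r = 0.987 over genes and 0.981 over the 32 members, given as a description.

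The members and lists were chosen with earlier results of these data known. Any measured member could be named, with up to 4 genes of largest absolute difference from each further replication list and up to 2 from each comparison list. Promoter windows are RefSeq's, and those printed are from genes with an E2F match and a mean level at or above the median, outside chromosome 8. Alternatives were quantile normalization, centring, loess (span 0.3), the feature with the highest mean level, level filters, other thresholds and subtraction of neighbours. Software was matplotlib 3.10.9, statsmodels 0.14.6, numpy 2.4.6 and pandas 2.3.3 under Python 3.11.15. The median difference, loess, quantile normalization and neighbour medians were tested on simulated data, and the promoter search and the counts were not.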

Additional observations from a re-analysis of the deposited data

How the results depend on the processing

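Over 8 alternatives the median difference of the members stayed between -0.40 and -0.27, and between 26 and 30 members were below 0; the 26 were counted among the 27 members at or above the third quartile of level. All-gene medians were -0.03 as deposited, -0.003 after quantile normalization and -0.009 after loess. The 12 members lower by at least 0.5, against 6.47% of all named genes, became 1 at a threshold of -1, against 0.486%. Under quantile normalization and loess they numbered 9 each, against 4.84% and 4.8% of all named genes. They became 22 at a threshold of -0.3 and 6 after subtraction of neighbours at or above the median level, the last chosen after seeing the data. For the threshold of -0.3 and the subtraction of neighbours, the share of all named genes was not counted. MCM6, GINS2, GINS3, CLSPN, E2F1 and E2F8 were lower by at least 0.5 in each of the 6 alternatives run for single genes. Below 0 as deposited, CDT1, E2F7, WDHD1, TYMS and GINS4 were above 0 in at least 1 of these alternatives, with values up to 0.21, and the cause was not tested. No paired analysis was possible because each group had 1 array.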
